A study of Mus musculus with 10 samples.

Results

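Collagens are the main structural proteins of the extracellular matrix, and each collagen molecule is built from alpha chains wound into a triple helix, each chain being the product of its own gene. Fibrillar collagens assemble into the cross-banded fibres that give the heart muscle its tensile strength. Basement membrane collagen (type IV) forms the sheet-like network around each heart muscle cell and capillary. The other types coat fibrils, form beaded filaments, link basement membranes to the surrounding tissue or span the cell membrane. Collagen deposition between heart muscle cells is a recognised feature of heart failure with preserved ejection fraction (HFpEF), in which the ventricle pumps but fills poorly.

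The collagen genes described here are all rows of the deposited count table whose symbol consists of Col, a number, the letter a and a number. They were 44 of 55385 genes, of which 11 encode fibrillar chains, 6 encode type IV chains and 27 belong to other types. The libraries come from the left ventricle of mice whose strain is written C56Bl6 in the labels. In the HFpEF group (5 libraries) the mice received a high-fat diet together with the nitric oxide synthase inhibitor L-NAME over 6 weeks. The Control group (5 libraries) received a standard diet over the same 6 weeks. The labels name no genetic alteration in either group, and do not say that each library is a separate animal, so the p-values below reflect variation among libraries that may be partly technical.

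Library totals ran between 31286355 and 33604554 counts in HFpEF and between 31555001 and 46108710 in Control, where libraries 4 and 5 were the deepest. Transcripts of the mitochondrial genome took 37.6% ± 0.9 of counts in HFpEF and 35.7% ± 1.7 in Control (SD, n = 5 each, exact two-sided permutation test, p = 0.0635). The TMM scaling factor, which corrects for differences in library composition, averaged 0.966 ± 0.035 in HFpEF and 1.04 ± 0.0354 in Control (SD, n = 5 each, exact two-sided permutation test, p = 0.0238). Heart muscle markers were abundant, with Myh6, the main adult ventricular myosin heavy chain of the mouse, at 11850 CPM (counts scaled to library size) in HFpEF and 12167 CPM in Control. In bulk tissue, fewer cells of a type and less RNA per cell cannot be told apart.

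Few collagen chains differed between the groups by more than the spread of the libraries. Of the 44 chains, 33 had enough counts to be tested, and edgeR (quasi-likelihood fit, Benjamini-Hochberg adjustment across the 18491 genes tested, threshold 0.05) called 2 higher and 1 lower in HFpEF. The 2 higher chains were Col27a1 and Col28a1 and the lower one was Col4a3. The 3 calls are 9.09% of the chains tested, beside 5.33% of all genes tested (3.24% higher and 2.09% lower). At an unadjusted p below 0.05 there were 7 higher and 4 lower chains, together 33.3%, beside 20.5% of all genes tested (10.6% higher and 9.91% lower). HFpEF and Control libraries did not overlap in 2 chains, Col27a1 and Col28a1, both with HFpEF higher; this was so for 6.81% of all genes tested (3.88% with HFpEF higher and 2.93% with HFpEF lower). The median log2 fold change (HFpEF over Control) was 0.00 over the chains and -0.01 over all genes, with 18 chains above 0 and 15 below. Without regard to sign, the median size of the log2 difference was 0.16 over the chains and 0.11 over all genes tested.

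**Figure D1:**
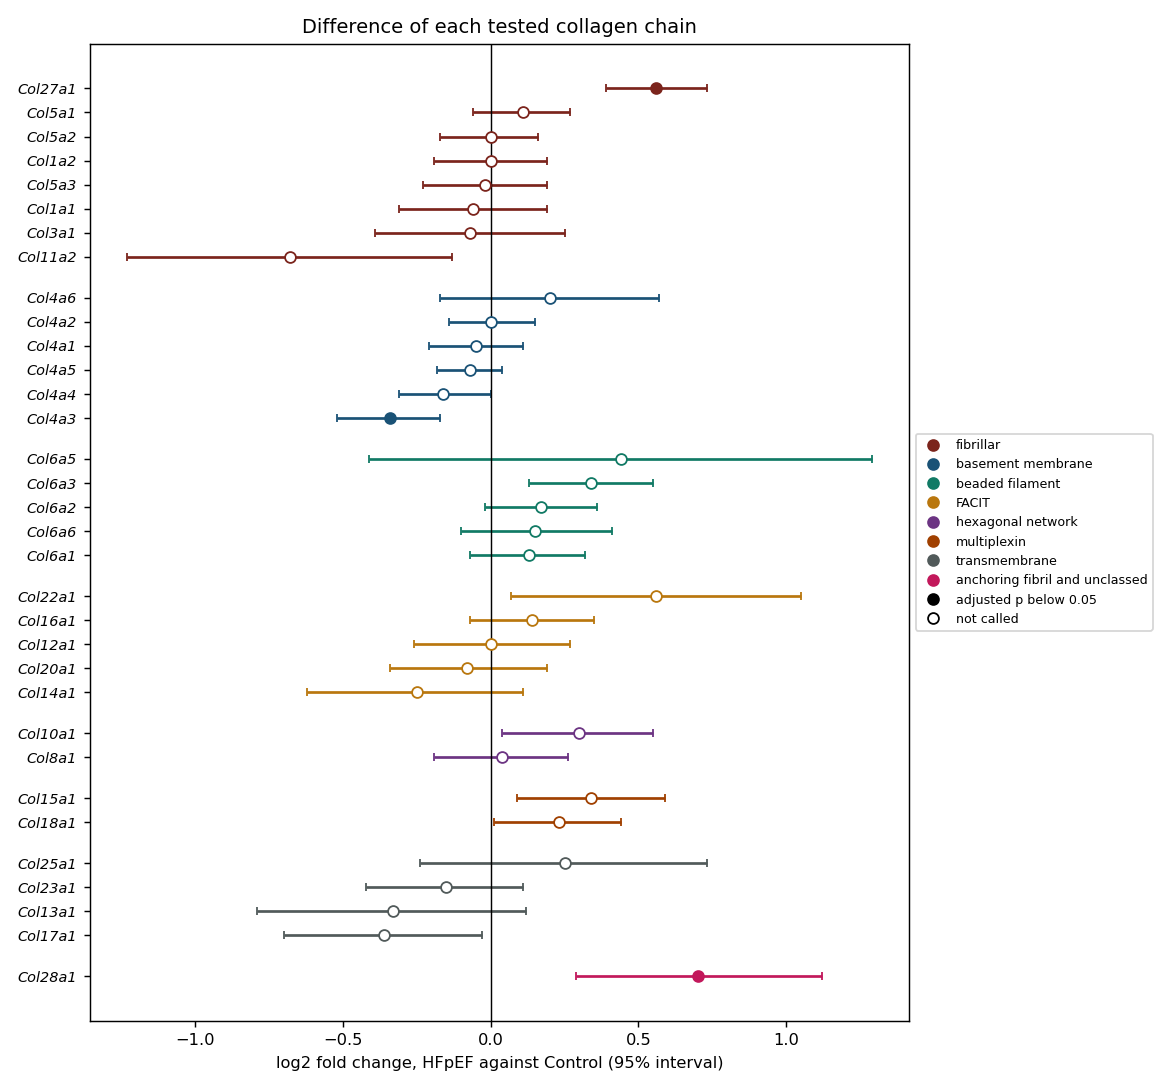
Log2 fold change of HFpEF over Control for each of the 33 tested chains, grouped and coloured by class, with 95% intervals from the edgeR fit; filled points passed an adjusted p below 0.05. Col27a1 and Col28a1 lie above 0, Col4a3 lies below, and the large fibrillar and type IV chains Col1a1, Col1a2, Col3a1, Col4a1 and Col4a2 sit close to 0.

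The 11 chains that were not tested had few counts in every library. Col7a1, the anchoring fibril collagen of skin, had 5 to 30 counts per library, and Col26a1 had 6 to 15. Col8a2, partner of Col8a1 in vessel and corneal membranes, had 2 to 14, and the fibrillar chain Col24a1 had 4 to 10. The chains of cartilage were sparse, with 0 to 5 counts for Col2a1, 1 to 3 for Col11a1, 0 to 1 for Col9a1, 1 to 7 for Col9a2 and 0 to 9 for Col9a3. Col19a1 had 2 to 5 counts and Col6a4 had 0 to 2. A fit with no filter on low counts tested all 44 chains and called Col27a1, Col28a1 and Col4a3, none of the sparse ones.

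Levels were compared between chains as CPM per kb of the principal transcript, averaged over the 10 libraries. The type IV pair led, with Col4a1 at 42.9 and Col4a2 at 30.1 CPM per kb. Type VI followed with Col6a2 at 16.2 and Col6a1 at 16, and then Col3a1 at 14.9, Col15a1 at 13.0, Col1a2 at 12.4 and Col1a1 at 11.4 CPM per kb. These 8 chains stood above all other chains tested. The next level was that of Col8a1 at 5.53, Col6a3 at 4.53 and Col5a1 at 4.04 CPM per kb. The called chains were far down this order: Col4a3 averaged 0.932, Col27a1 0.888 and Col28a1 0.281 CPM per kb. The lowest tested chain was Col6a5 at 0.067 CPM per kb.

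**Figure D2:**
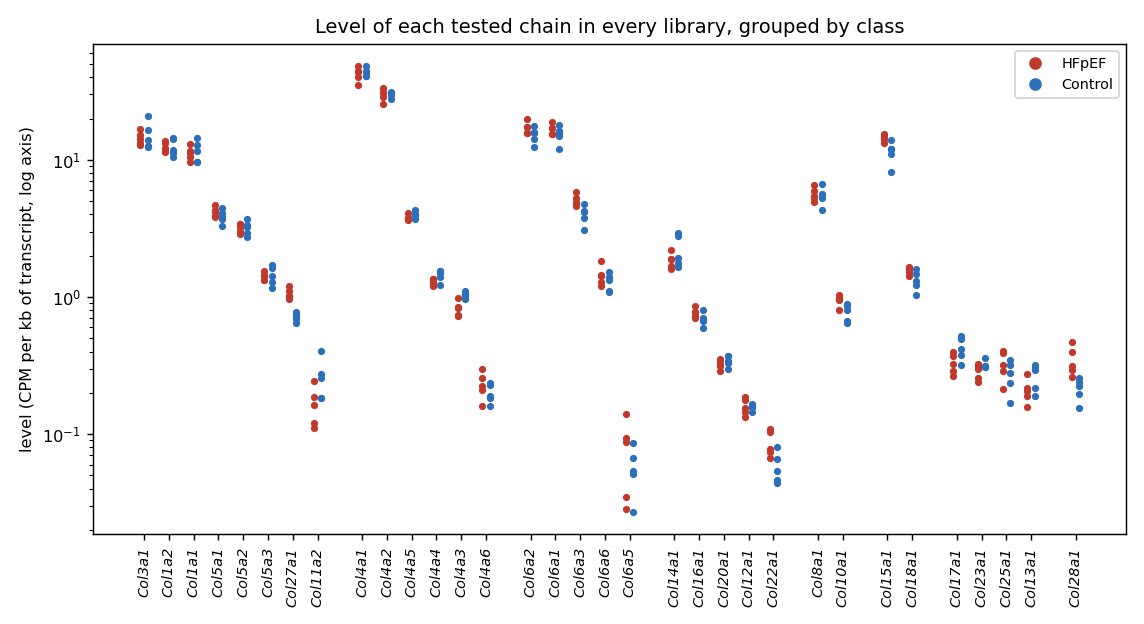
Level of each tested chain in CPM per kb of transcript on a log axis, with 1 point per library, HFpEF to the left of Control, and chains grouped by class. The spread between chains runs from Col6a5 near the bottom to Col4a1 at the top and is far wider than any gap between HFpEF and Control libraries of 1 chain.

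Among the fibrillar chains, which form the load-bearing fibres, the abundant ones did not pass the test and Col27a1 rose. Of 8 tested fibrillar chains, 1 was called higher and 0 lower, with a median log2 fold change of -0.01. The 1 call is 12.5% of them, beside 5.33% of all genes tested, and 25% had an unadjusted p below 0.05, beside 20.5%. Col27a1, a fibrillar chain best known from developing cartilage, averaged 8.07 ± 0.695 CPM in HFpEF and 5.45 ± 0.401 CPM in Control (SD, n = 5 each). Its levels were 9.14, 8.35, 7.75, 7.69 and 7.39 CPM in HFpEF libraries 1 to 5, against 4.91, 5.63, 5.22, 5.96 and 5.52 CPM in Control libraries 1 to 5. Every HFpEF library lay above every Control library. The log2 fold change was 0.56 ± 0.08 (SE), a 1.48-fold higher level, with a 95% interval of 0.39 to 0.73 and an adjusted p of 0.000878 by edgeR. The call held in all 20 alternatives fitted, with log2 fold changes of 0.51 to 0.62.

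The Col27a1 gene (ENSMUSG00000045672.15) lies on the plus strand at chr4:63214004-63334991 of build mm10 by GENCODE M21. RefSeq places the start of Col27a1 downstream of the GENCODE start, so the sequence printed lies inside the GENCODE gene. The bases before the RefSeq start are shown because it is the chain whose call held under each alternative. The window is the 250 bases before the RefSeq start (GRCm38.p6, chr4:63215162-63215411, plus strand), and capitals mark matches to the GC box letters GGGCGG, the TATA box letters TATAAA or the CCAAT box letters CCAAT on either strand.
Col27a1: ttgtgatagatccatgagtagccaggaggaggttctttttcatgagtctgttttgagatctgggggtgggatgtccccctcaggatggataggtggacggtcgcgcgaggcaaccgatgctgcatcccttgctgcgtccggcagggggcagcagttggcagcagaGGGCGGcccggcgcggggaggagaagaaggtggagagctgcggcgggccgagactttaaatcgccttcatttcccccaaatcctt
It holds 1 GC box match, at bases 166 to 171, none to the other motifs, and 59.6% G and C. Of 32851 RefSeq windows of the same length, 32.7% hold GGGCGG, 12.4% TATAAA and 33.8% CCAAT. Among the 38 windows of collagen genes the counts were 22, 5 and 13.

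The chains of the major fibres stayed within the spread of the libraries. Col1a1, a chain of type I collagen, averaged 66.4 ± 7.30 CPM in HFpEF and 69.1 ± 12.2 CPM in Control (SD, n = 5 each). It stood at 57.5, 76.9, 66.6, 62.1 and 68.9 CPM in HFpEF libraries 1 to 5, against 57.5, 85.6, 57.6, 68.5 and 76.4 CPM in Control libraries 1 to 5. The groups overlapped, with a log2 fold change of -0.06 ± 0.12 (SE, 95% interval -0.31 to 0.19, edgeR adjusted p = 0.830). Col1a2, the partner chain of type I, had 62.2, 72.8, 65.1, 60.6 and 70.4 CPM in HFpEF libraries 1 to 5, against 59.6, 76.7, 56.2, 63.4 and 75.3 CPM in Control libraries 1 to 5. Its log2 fold change was -0.00 ± 0.09 (SE, 95% interval -0.19 to 0.19, edgeR adjusted p = 0.995). Col3a1, the chain of type III collagen, which forms thinner and more pliable fibres, had 71.2, 93.7, 79.4, 74.1 and 85 CPM in HFpEF libraries 1 to 5, against 68.8, 116, 69.9, 77.6 and 91.7 CPM in Control libraries 1 to 5. Control library 2 was the highest for Col1a1, Col1a2 and Col3a1, and the Col3a1 log2 fold change was -0.07 ± 0.15 (SE, 95% interval -0.39 to 0.25, edgeR adjusted p = 0.839). The signs of these 3 differences are not settled: without Control library 2 they became 0.04 for Col1a1, 0.06 for Col1a2 and 0.07 for Col3a1.

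Type V chains, which set the diameter of type I fibrils, also overlapped between the groups. Col5a1 averaged 35.2 ± 2.93 CPM in HFpEF and 32.7 ± 3.57 CPM in Control (SD, n = 5 each), a log2 fold change of 0.11 ± 0.08 (SE, edgeR adjusted p = 0.466). Col5a2 was at 21.1 CPM in both groups and Col5a3 at 8.65 CPM in HFpEF and 8.79 CPM in Control, with log2 fold changes of -0.00 and -0.02. Col11a2, a minor fibrillar chain known mainly from cartilage and the inner ear, had few counts (19 to 109 per library). It stood at 0.595, 1.31, 0.876, 0.999 and 0.649 CPM in HFpEF libraries 1 to 5, against 0.982, 1.48, 1.38, 0.994 and 2.17 CPM in Control libraries 1 to 5. The groups overlapped, and its log2 fold change of -0.68 ± 0.26 (SE, 95% interval -1.23 to -0.13) did not pass after adjustment (edgeR adjusted p = 0.150).

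**Figure D3:**
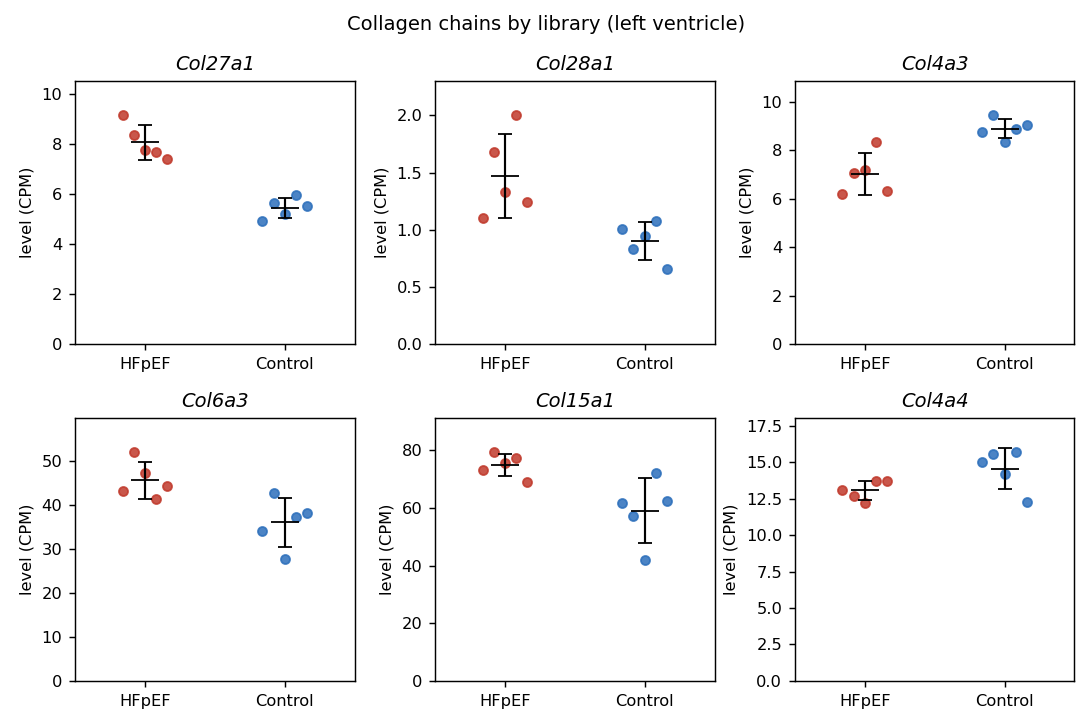
Level in CPM of Col27a1, Col28a1, Col4a3, Col6a3, Col15a1 and Col4a4 in each library, HFpEF to the left of Control, with the mean and SD of 5 libraries as bars. The groups are apart for Col27a1 and Col28a1, while for Col4a3 HFpEF library 4 at 8.36 CPM reaches just above Control library 3 at 8.33 CPM.

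Of the 6 type IV chains of the basement membrane, Col4a3 fell and the other 5 did not pass the test. The 1 call is 16.7% of them, beside 5.33% of all genes tested, and 33.3% had an unadjusted p below 0.05, beside 20.5%. Col4a1 and Col4a2 form the main network of the heart, Col4a3, Col4a4 and Col4a5 form the network best known from the kidney filter, and Col4a6 joins Col4a5 in smooth muscle. Col4a3 averaged 7.03 ± 0.863 CPM in HFpEF and 8.90 ± 0.409 CPM in Control (SD, n = 5 each). Its levels were 6.20, 7.07, 7.20, 8.36 and 6.34 CPM in HFpEF libraries 1 to 5, against 8.78, 9.45, 8.33, 8.90 and 9.06 CPM in Control libraries 1 to 5. Of the HFpEF libraries, library 4 alone reached the Control range. The log2 fold change was -0.34 ± 0.08 (SE, 95% interval -0.52 to -0.17, edgeR adjusted p = 0.0244). The call was lost without HFpEF library 3 (adjusted p = 0.0538), without HFpEF library 5 (0.0655), without Control library 2 (0.0672) and without Control libraries 4 and 5 together (0.0818), with log2 fold changes of -0.41 to -0.30 over 20 alternatives. Exons of C430014B12Rik on the opposite strand overlap 5.65% of the exon bases of Col4a3, and that gene was at 0.526 CPM in HFpEF and 0.51 CPM in Control.

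The gene that shares its start region with Col4a3 is Col4a4, on the opposite strand. Col4a4 had 13.1, 12.7, 12.2, 13.7 and 13.7 CPM in HFpEF libraries 1 to 5, against 15, 15.6, 14.2, 15.7 and 12.3 CPM in Control libraries 1 to 5. All HFpEF libraries lay below 4 of the 5 Control libraries, while Control library 5 was within the HFpEF range. Its log2 fold change was -0.16 ± 0.07 (SE, 95% interval -0.31 to -0.00, edgeR adjusted p = 0.229), so it was not called. The ratio of Col4a3 to Col4a4 per kb was 0.637 ± 0.0811 in HFpEF and 0.727 ± 0.08 in Control (SD, n = 5 each), and the ranges overlapped.

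The 6 type IV genes lie in head-to-head pairs, and the sequence between or under the starts of the closest pairs is shown because Col4a3 and Col4a4 share it and so do Col4a1 and Col4a2. Capitals mark the same motifs as above. Col4a4 (ENSMUSG00000067158.9, minus strand, chr1:82448423-82586849) and Col4a3 (ENSMUSG00000079465.8, plus strand, chr1:82586921-82722059) are 71 bases apart in GENCODE M21, and these bases (chr1:82586850-82586920, plus strand) hold no match and 69% G and C. The first exons of Col4a1 (ENSMUSG00000031502.11, minus strand, chr8:11198423-11312826) and Col4a2 (ENSMUSG00000031503.13, plus strand, chr8:11312805-11449287) overlap by 22 bases (chr8:11312805-11312826, plus strand), which hold 1 GC box match.
Col4a4-Col4a3: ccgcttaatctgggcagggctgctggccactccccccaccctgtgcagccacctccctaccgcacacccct
Col4a1-Col4a2: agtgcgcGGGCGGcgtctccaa
Col4a6 and Col4a5 on the X chromosome also start head to head, 1308 bases apart.

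The main type IV pair was at almost the same level in both groups. Col4a1 had 231, 318, 291, 294 and 264 CPM in HFpEF libraries 1 to 5, against 272, 271, 317, 293 and 291 CPM in Control libraries 1 to 5, with a log2 fold change of -0.05 ± 0.08 (SE, 95% interval -0.21 to 0.11, edgeR adjusted p = 0.776). Col4a2 had 164, 216, 197, 212 and 184 CPM in HFpEF libraries 1 to 5, against 190, 179, 199, 203 and 197 CPM in Control libraries 1 to 5. Its log2 fold change was 0.00 ± 0.07 (SE, 95% interval -0.14 to 0.15, edgeR adjusted p = 0.983). HFpEF library 1 was the lowest and HFpEF library 2 the highest of the 10 for both chains. Col4a5 averaged 24.8 ± 1.2 CPM in HFpEF and 26.1 ± 1.43 CPM in Control, and Col4a6 1.53 ± 0.339 CPM in HFpEF and 1.32 ± 0.211 CPM in Control (SD, n = 5 each). Their log2 fold changes were -0.07 ± 0.05 and 0.20 ± 0.17 (SE), with edgeR adjusted p of 0.478 and 0.558.

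Among the 19 tested chains of other types, Col28a1 was called higher and none lower, or 5.26%, beside 5.33% of all genes tested. These 19 chains had 14 log2 fold changes above 0 (73.7%), beside 47.2% of all genes tested. Their median log2 fold change was 0.15. By class the medians were 0.17 for the 5 beaded filament chains, 0.28 for the 2 chains of types XV and XVIII, 0.17 for the 2 hexagonal network chains, 0.00 for the 5 FACIT chains that sit on fibril surfaces, and -0.24 for the 4 transmembrane chains. Control library 3 was the lowest of the 10 libraries for the 5 beaded filament chains. The same held for Col8a1, Col10a1, Col15a1, Col16a1 and Col18a1. All of these had log2 fold changes above 0. The chains were read in the same libraries, so their signs are not independent. All but Col8a1 kept the sign in every alternative fitted, including each fit that left out 1 library. Col8a1 kept it in 18 of 20.

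Col28a1 encodes a collagen with von Willebrand factor A domains that in mice is known from the basement membranes around Schwann cells of peripheral nerves. It stood at 1.10, 1.68, 1.33, 2.00 and 1.24 CPM in HFpEF libraries 1 to 5, against 1.01, 0.829, 0.943, 1.08 and 0.657 CPM in Control libraries 1 to 5. Every HFpEF library lay above every Control library, though HFpEF library 1 and Control library 4 nearly met. The means were 1.47 ± 0.367 CPM in HFpEF and 0.905 ± 0.167 CPM in Control (SD, n = 5 each), with 28 to 60 counts per library. The log2 fold change was 0.70 ± 0.20 (SE, 95% interval 0.29 to 1.12), and the edgeR adjusted p of 0.0499 was at the edge of the threshold. It stayed called in 6 of 19 alternatives (adjusted p 0.0255 to 0.13, log2 fold change 0.57 to 0.79); of the 10 fits that left out 1 library, the call held without HFpEF library 1 (0.0276) and without Control library 4 (0.0468), and in the other fits adjusted p ran from 0.0604 without HFpEF library 5 to 0.13 without HFpEF library 4.

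The Col28a1 gene (ENSMUSG00000068794.7) lies on the minus strand at chr6:7997808-8192617 of mm10. The 250 bases before its RefSeq start (GRCm38.p6, chr6:8192618-8192867, printed on the minus strand) are shown beside those of Col27a1 as the upstream sequence of the other chain called higher.
Col28a1: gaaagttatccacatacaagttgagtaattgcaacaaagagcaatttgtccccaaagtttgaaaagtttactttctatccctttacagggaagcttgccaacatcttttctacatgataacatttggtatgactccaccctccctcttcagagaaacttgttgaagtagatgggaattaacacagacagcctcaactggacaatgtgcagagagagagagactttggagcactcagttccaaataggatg
This window holds no match to the GC, TATA or CCAAT box letters, and 40.4% G and C, against 59.6% for Col27a1.

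Of 5 Schwann cell markers 4 were tested, and edgeR called 1 higher and 3 not, all 4 with log2 fold changes above 0 (median 0.37). Over all genes tested 5.33% were called and 47.2% had a log2 fold change above 0. Cdh19, a cadherin of Schwann cells, was called higher at 9.77 ± 1.24 CPM in HFpEF and 7.21 ± 0.719 CPM in Control (SD, n = 5 each, log2 fold change 0.43 ± 0.09 SE, edgeR adjusted p = 0.0135). The summed level of the 5 markers ran from 14.4 to 20.8 CPM in HFpEF and from 12.3 to 15.4 CPM in Control. Within HFpEF, library 4, highest for Col28a1, had the lowest sum (14.4 CPM), and library 1, lowest for Col28a1, had the highest (20.8 CPM). Within Control, library 4 was highest for both, with Col28a1 at 1.08 CPM and a sum of 15.4 CPM. None of the 5 was at 0 in all libraries. The part of these cells in the Col28a1 result was not tested.

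Type VI collagen forms beaded filaments around muscle cells and near basement membranes, built from Col6a1, Col6a2 and a further chain that is most often Col6a3. All 5 tested type VI chains had log2 fold changes above 0, from 0.13 to 0.44, and 0 of them passed the edgeR test. Control library 3 was the lowest of the 10 libraries for all 5. At an unadjusted p below 0.05 there was 1 (Col6a3), or 20% of the 5, beside 20.5% of all genes tested. Col6a3 (ENSMUSG00000048126.16, minus strand, chr1:90765923-90843971) is the chain whose tail yields endotrophin, a fragment studied as a marker of fibrosis. It stood at 43.1, 52.0, 47.2, 41.3 and 44.3 CPM in HFpEF libraries 1 to 5, against 34.1, 42.6, 27.8, 37.3 and 38.2 CPM in Control libraries 1 to 5. The groups met only at Control library 2, which lay above HFpEF library 4. Its log2 fold change was 0.34 ± 0.10 (SE, 95% interval 0.13 to 0.55, edgeR adjusted p = 0.0676), so Col6a3 was not called. It passed in 3 of 20 alternatives: with DESeq2 (adjusted p = 0.0139), with the replicate number as a block (0.0351) and without Control library 2 (0.0269). The last of these drops the 1 Control library that reached the HFpEF range. Of the 10 fits that left out 1 library, 1 called Col6a3, and adjusted p over all alternatives ran up to 0.172.

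Col6a1 had 62.9, 77.0, 69.8, 69.9 and 63.1 CPM in HFpEF libraries 1 to 5, against 61.0, 73.2, 48.8, 64.5 and 66.3 CPM in Control libraries 1 to 5 (log2 fold change 0.13 ± 0.09 SE, edgeR adjusted p = 0.480). Col6a2 had 61.8, 77.9, 68.4, 68.0 and 61.8 CPM in HFpEF libraries 1 to 5, against 56.3, 69.5, 49.2, 61.9 and 63.5 CPM in Control libraries 1 to 5 (log2 fold change 0.17 ± 0.09 SE, edgeR adjusted p = 0.301). Both overlapped between the groups, with HFpEF library 2 the highest and Control library 3 the lowest. Per kb, the ratio of Col6a3 to Col6a1 was 0.312, 0.308, 0.308, 0.269 and 0.320 in HFpEF libraries 1 to 5, against 0.255, 0.266, 0.259, 0.263 and 0.262 in Control libraries 1 to 5. This ratio was singled out after its values were seen, and it did not overlap between the groups. Col6a6 and Col6a5, which can take the place of Col6a3 in the filament, had log2 fold changes of 0.15 ± 0.12 and 0.44 ± 0.40 (SE, edgeR adjusted p 0.515 and 0.581). Col6a5 was the most variable chain within groups, with 8 to 42 counts per library.

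Types XV and XVIII link basement membranes to the fibres outside them, and both release fragments known to restrain vessel growth. Col15a1 (ENSMUSG00000028339.17, plus strand, chr4:47208161-47313167) had 73.1, 79.4, 75.7, 77.2 and 69.1 CPM in HFpEF libraries 1 to 5, against 61.8, 57.3, 41.8, 72.3 and 62.4 CPM in Control libraries 1 to 5. Control library 4 reached the HFpEF range and Control library 3 lay far below the rest. The log2 fold change was 0.34 ± 0.11 (SE, 95% interval 0.09 to 0.59, edgeR adjusted p = 0.113), so Col15a1 was not called. It passed in 3 of 20 alternatives: with DESeq2 (adjusted p = 0.0274), without Control library 4 (0.0307) and without Control libraries 4 and 5 together (0.0317). The last 2 of these drop the Control library that reached the HFpEF range. Without Control library 3 the log2 fold change became 0.24 with an adjusted p of 0.0517, and adjusted p over all alternatives ran up to 0.296.

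Col18a1, the source of endostatin, had 7.89, 7.64, 7.27, 6.83 and 7.73 CPM in HFpEF libraries 1 to 5, against 6.31, 5.83, 4.93, 7.61 and 7.01 CPM in Control libraries 1 to 5. The groups overlapped through Control libraries 4 and 5. The log2 fold change was 0.23 ± 0.10 (SE, 95% interval 0.01 to 0.44, edgeR adjusted p = 0.214), so Col18a1 was not called. Of 20 alternatives 1 called it, the fit without these 2 libraries, at 0.39 (edgeR adjusted p = 0.0377). That fit was chosen after seeing the data and drops the libraries that made the groups overlap, so its pass is not separate evidence. The 10 fits that left out 1 library gave 0 calls (edgeR adjusted p 0.0872 to 0.367).

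Of the hexagonal network chains, Col8a1, a short chain of vessel walls, had 25.2, 26.8, 33.5, 27.6 and 30.3 CPM in HFpEF libraries 1 to 5, against 27.6, 26.9, 22.0, 28.8 and 34.1 CPM in Control libraries 1 to 5. The ranges overlapped almost fully (log2 fold change 0.04 ± 0.10 SE, edgeR adjusted p = 0.891). Col10a1, known from hypertrophic cartilage, had 2.50, 3.24, 3.08, 3.03 and 2.97 CPM in HFpEF libraries 1 to 5, against 2.53, 2.67, 2.01, 2.78 and 2.09 CPM in Control libraries 1 to 5. HFpEF library 1 lay inside the Control range, and the log2 fold change of 0.30 ± 0.12 (SE, 95% interval 0.04 to 0.55) was not called (edgeR adjusted p = 0.177). Col10a1 lies inside Nt5dc1 on the opposite strand, whose own level was 7 CPM in HFpEF and 7.04 CPM in Control and whose exons overlap 0.575% of its exon bases.

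The FACIT chains, which decorate fibrils without forming them, had 0 calls among 5 tested by edgeR, limma-voom or DESeq2. Of these 5, 1 (Col22a1) had an unadjusted p below 0.05 in edgeR, or 20%, beside 20.5% of all genes tested. Col14a1 had 9.14, 10.7, 10.8, 9.59 and 12.5 CPM in HFpEF libraries 1 to 5, against 10.1, 15.7, 9.46, 10.9 and 16.6 CPM in Control libraries 1 to 5, where libraries 2 and 5 stood above the rest. Col16a1 had 4.01, 4.02, 3.76, 3.63 and 4.45 CPM in HFpEF libraries 1 to 5, against 3.63, 3.52, 3.11, 3.50 and 4.16 CPM in Control libraries 1 to 5. Their log2 fold changes were -0.25 ± 0.17 and 0.14 ± 0.10 (SE), with edgeR adjusted p of 0.431 and 0.444. Col22a1, a chain of tissue junctions such as that of muscle and tendon, had 0.689, 0.592, 0.909, 0.966 and 0.649 CPM in HFpEF libraries 1 to 5, against 0.714, 0.385, 0.409, 0.474 and 0.578 CPM in Control libraries 1 to 5. Control library 1 lay inside the HFpEF range, and the log2 fold change of 0.56 ± 0.23 (SE, 95% interval 0.07 to 1.05) was not called at 13 to 29 counts per library (edgeR adjusted p = 0.178). Col12a1, like Col14a1 a chain of the fibril surface, and Col20a1 had log2 fold changes of 0.00 ± 0.13 and -0.08 ± 0.12 (SE).

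The 4 transmembrane chains were all low, and 0 were called by edgeR, limma-voom or DESeq2. Of these 4, 1 (Col17a1) had an unadjusted p below 0.05 in edgeR, or 25%, beside 20.5% of all genes tested. Col17a1, known from the hemidesmosomes of skin, had 2.19, 2.03, 1.59, 1.77 and 1.45 CPM in HFpEF libraries 1 to 5, against 1.76, 2.84, 2.70, 2.28 and 2.07 CPM in Control libraries 1 to 5 (log2 fold change -0.36 ± 0.16 SE, edgeR adjusted p = 0.204). Col23a1 had 1.78, 1.84, 1.46, 1.70 and 1.36 CPM in HFpEF libraries 1 to 5, against 2.02, 1.78, 1.76, 1.74 and 1.77 CPM in Control libraries 1 to 5 (log2 fold change -0.15 ± 0.13 SE, edgeR adjusted p = 0.536). In both chains the groups overlapped. Col13a1, a chain of the neuromuscular junction, and Col25a1, known for its part in motor nerve growth into muscle, had log2 fold changes of -0.33 ± 0.21 and 0.25 ± 0.23 (SE), with edgeR adjusted p of 0.406 and 0.595.

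Summed over all 44 chains, collagen transcripts took 1143 ± 89.5 CPM in HFpEF and 1117 ± 66 CPM in Control (SD, n = 5 each). These sums are descriptions without a test. Fibrillar chains summed to 287 ± 24 CPM in HFpEF and 290 ± 46.9 CPM in Control, and type IV chains to 520 ± 54.4 CPM in HFpEF and 533 ± 25.5 CPM in Control. For both classes the difference in means was below the SD of either group. Type VI chains summed to 195 ± 15.1 CPM in HFpEF (183 to 220) and 171 ± 23.1 CPM in Control (136 to 198), and types XV and XVIII to 82.4 ± 3.79 CPM in HFpEF (76.8 to 87.0) and 65.4 ± 12.1 CPM in Control (46.8 to 79.9). In both of these the ranges overlapped and Control library 3 was the lowest of the 10. Control library 3 was also the lowest library for 12 of the 33 tested chains, and HFpEF library 2 the highest for 9.

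**Figure D4:**
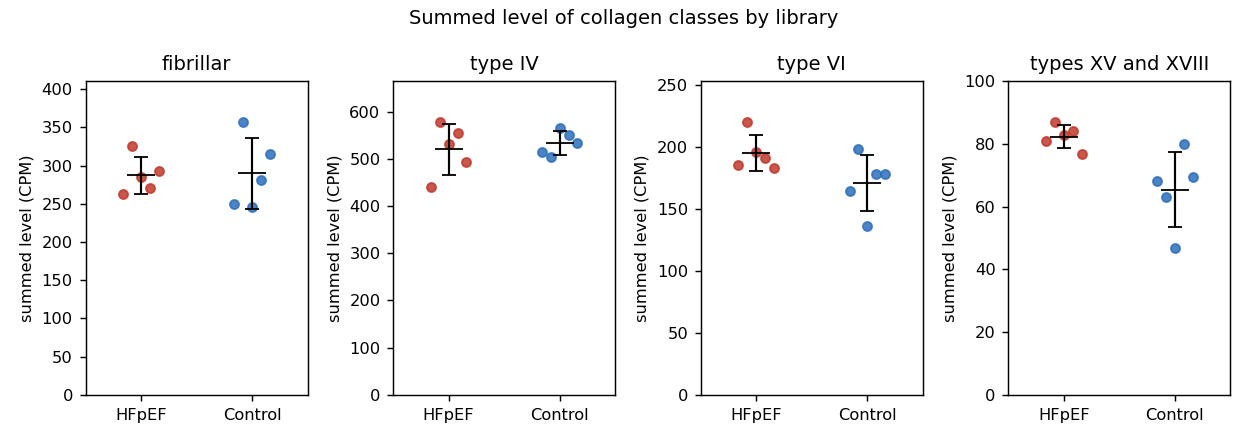
Summed CPM of fibrillar, type IV, type VI, and types XV and XVIII chains in each library, HFpEF to the left of Control, with the mean and SD of 5 libraries as bars. Fibrillar sums overlap between 263 to 325 CPM in HFpEF and 246 to 357 CPM in Control, and type IV sums between 440 to 578 CPM in HFpEF and 503 to 565 CPM in Control; in the type VI and the XV and XVIII sums Control library 3 is the lowest point, at 136 and 46.8 CPM.

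As a share of all collagen CPM per kb, the other types made up 35.0% ± 1.0 in HFpEF (34.3 to 36.7) and 31.7% ± 2.5 in Control (27.2 to 33.1). The ranges did not overlap, with Control library 3 the lowest. Fibrillar chains made up 24.7% ± 1.24 in HFpEF and 25.7% ± 2.71 in Control, and type IV chains 40.3% ± 1.65 in HFpEF and 42.7% ± 4.25 in Control (SD, n = 5 each). Ratios between the most abundant partner chains overlapped between the groups, unlike that of Col6a3 to Col6a1 above. Per kb, Col1a1 to Col1a2 was 0.903 ± 0.0454 in HFpEF and 0.938 ± 0.0529 in Control, and Col1a1 to Col3a1 was 0.772 in both (SD 0.0135 in HFpEF and 0.0492 in Control). Col4a1 to Col4a2 was 1.40 ± 0.0387 in HFpEF and 1.45 ± 0.0642 in Control.

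The genes that fold, process, cross-link, degrade, bind or accompany collagens were read from a list of 88. Of the 84 tested, 5 rose and 1 fell in HFpEF, which is 7.14%, beside 5.33% of all genes tested, and their median log2 fold change was 0.02. In the endoplasmic reticulum, where procollagen is hydroxylated and folded, 2 of 19 tested genes were called, both higher (10.5%, beside 5.33% of all genes tested). At an unadjusted p below 0.05 there were 3 higher and 1 lower, or 21.1%, beside 20.5% of all genes tested. The lower one was Mia3, with every HFpEF library below every Control library but no call (log2 fold change -0.12 ± 0.04 SE, edgeR adjusted p = 0.12). Fkbp10, a prolyl isomerase and collagen chaperone, had 18.2, 16.6, 14.2, 17.8 and 14.6 CPM in HFpEF libraries 1 to 5, against 9.88, 10.5, 8.33, 10.5 and 11.7 CPM in Control libraries 1 to 5. P3h4, part of a complex that acts in collagen lysine hydroxylation, had 13.7, 12.5, 12.3, 13.5 and 11.8 CPM in HFpEF libraries 1 to 5, against 8.69, 9.36, 7.67, 9.80 and 8.82 CPM in Control libraries 1 to 5. In both genes every HFpEF library lay above every Control library, with log2 fold changes of 0.67 ± 0.09 and 0.52 ± 0.07 (SE, edgeR adjusted p 0.000618 and 0.000683). The 2 genes are neighbours on chromosome 11 and start head to head, 860 bases apart. Serpinh1 (HSP47), the collagen-specific chaperone, was at 98.1 ± 7.45 CPM in HFpEF and 86.5 ± 14.8 CPM in Control (SD, n = 5 each, log2 fold change 0.18 ± 0.10 SE, edgeR adjusted p = 0.324).

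Of the 14 genes that trim procollagen or cross-link fibrils, edgeR and limma-voom called Tll2 alone, which rose, and DESeq2 also called Pcolce and Pcolce2. The edgeR call is 7.14% of the list, beside 5.33% of all genes tested. Tll2, a protease related to the procollagen C-proteinase Bmp1, had 4.16, 3.55, 4.25, 5.20 and 4.23 CPM in HFpEF libraries 1 to 5, against 2.11, 1.24, 1.95, 2.44 and 2.01 CPM in Control libraries 1 to 5. The groups were well apart, with a log2 fold change of 1.12 ± 0.15 (SE, edgeR adjusted p = 0.00056). At an unadjusted p below 0.05 there were 2 higher and 4 lower genes, or 42.9% of the list, beside 20.5% of all genes tested, and log2 fold changes in the list had a median of -0.09. The higher ones were Tll2 and the procollagen-processing protease Furin (log2 fold change 0.15 ± 0.06 SE). Pcolce2, an enhancer of C-proteinase activity, had 7.32, 8.88, 9.15, 9.36 and 7.91 CPM in HFpEF libraries 1 to 5, against 9.73, 11, 10.2, 9.53 and 11.4 CPM in Control libraries 1 to 5. Every HFpEF library lay below every Control library, and its log2 fold change of -0.29 ± 0.08 (SE) narrowly missed the threshold (edgeR adjusted p = 0.0521). The enhancer Pcolce (log2 fold change -0.23 ± 0.07 SE, edgeR adjusted p = 0.0683), the N-proteinase Adamts2 (-0.18 ± 0.08, 0.236) and the cross-linking enzyme Loxl4 (-0.30 ± 0.14, 0.234) were not called by edgeR either. Bmp1 itself was at 35.0 CPM in HFpEF and 36.8 CPM in Control, and Lox, which starts the cross-linking of fibrils, at 3.54 CPM in HFpEF and 3.79 CPM in Control, neither called. The calls of Fkbp10, P3h4 and Tll2 held in all 20 alternatives.

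Genes of collagen breakdown and collagen receptors gave 0 calls, among 14 and 9 tested. In each list 2 had an unadjusted p below 0.05 (14.3% and 22.2%), beside 20.5% of all genes tested. Limma-voom called 0 in both lists, and DESeq2 called 1, Itgb1. The smallest p among them belonged to Mrc2, an uptake receptor for collagen fragments (log2 fold change 0.16 ± 0.06 SE, edgeR adjusted p = 0.175), and Itgb1, the beta subunit of the collagen-binding integrins (0.15 ± 0.05, adjusted p = 0.104). Mrc2 was at 22.5 ± 0.225 CPM in HFpEF and 20.1 ± 2.03 CPM in Control, and Itgb1 ranged over 230 to 254 CPM in HFpEF and 205 to 234 CPM in Control (SD, n = 5 each for Mrc2). Among 16 basement membrane partners Lamb1, a laminin subunit, rose to 88.4 ± 6.53 CPM in HFpEF, against 76.2 ± 4.32 CPM in Control (SD, n = 5 each, log2 fold change 0.22 ± 0.06 SE, edgeR adjusted p = 0.043). DESeq2 also called Lama5 (edgeR log2 fold change 0.38 ± 0.13 SE, edgeR adjusted p = 0.125) and Hspg2 (0.12 ± 0.05, 0.182). The edgeR call of Lamb1 is 6.25% of the 16, beside 5.33% of all genes tested. At an unadjusted p below 0.05 in edgeR there were 4 higher and 1 lower, or 31.2% of the 16, beside 20.5% of all genes tested. Among 14 fibril partners Prelp, a leucine-rich proteoglycan that ties basement membranes to collagen, rose and Thbs2, a matricellular thrombospondin, fell. DESeq2 also called Lum (edgeR log2 fold change 0.38 ± 0.11 SE, edgeR adjusted p = 0.0776). The edgeR calls of Prelp and Thbs2 are 14.3% of these 14, beside the same 5.33%. Of these 14, 4 higher and 1 lower (35.7%) had an unadjusted p below 0.05 in edgeR, beside the same 20.5%. Prelp had 46.1, 50.8, 48.9, 45.8 and 46.2 CPM in HFpEF libraries 1 to 5, against 39.2, 38.4, 31.4, 42.5 and 44.2 CPM in Control libraries 1 to 5, and the groups did not overlap (log2 fold change 0.28 ± 0.08 SE, edgeR adjusted p = 0.0443). Thbs2 had 34.1, 33.1, 29.5, 30.5 and 31.9 CPM in HFpEF libraries 1 to 5, against 33.4, 38.7, 39.1, 35.7 and 37.0 CPM in Control libraries 1 to 5 (log2 fold change -0.21 ± 0.06 SE, edgeR adjusted p = 0.0408). These 3 edgeR calls were near the threshold and stayed called in 9 (Lamb1), 12 (Prelp) and 10 (Thbs2) of 20 alternatives. The Lamb1 call was lost without any 1 of HFpEF libraries 1 to 4 and Control libraries 1, 3, 4 and 5 (adjusted p 0.0669 to 0.0924), the Prelp call without any 1 HFpEF library or Control library 1 or 2 (0.0557 to 0.108), and the Thbs2 call without any 1 of HFpEF or Control libraries 2 to 5 (0.0519 to 0.113).

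**Figure D5:**
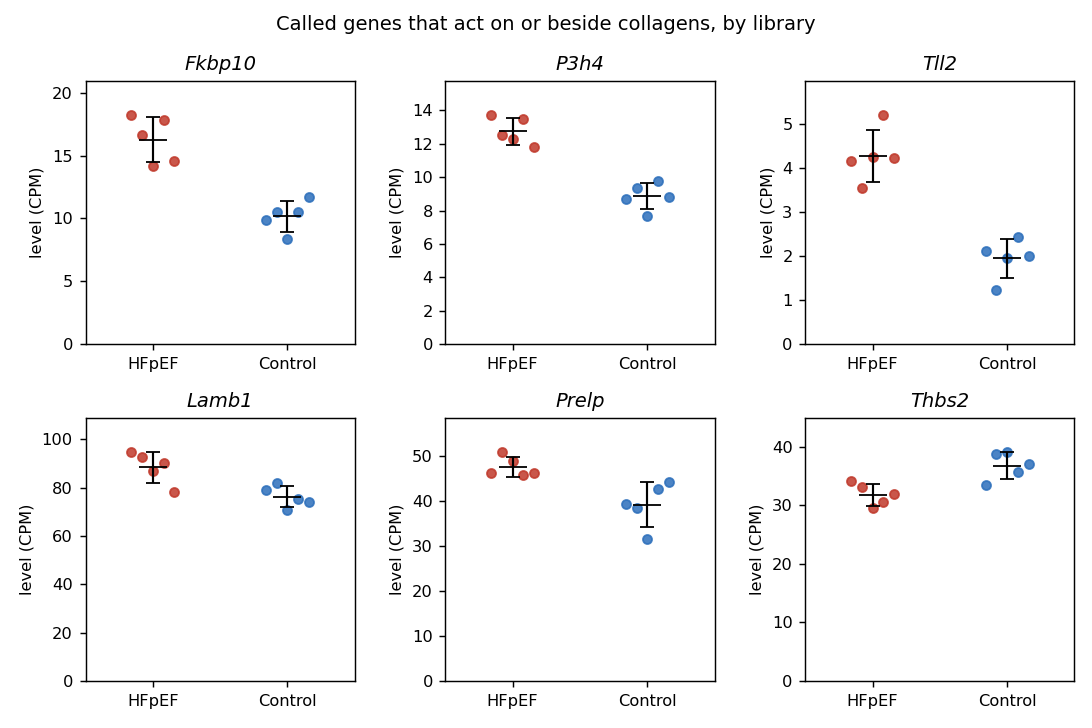
Level in CPM of the 6 called genes that act on or beside collagens in each library, HFpEF to the left of Control, with the mean and SD of 5 libraries as bars. For Fkbp10, P3h4, Tll2 and Prelp all HFpEF libraries lie above all Control libraries, while for Lamb1 and Thbs2 the groups overlap.

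Markers of the cells that make collagen were read in the same fit. Over all genes tested, 5.33% were called, 20.5% had an unadjusted p below 0.05 and 47.2% had a log2 fold change above 0. Of 9 fibroblast markers 0 were called by edgeR, 1 had an unadjusted p below 0.05, and 4 had log2 fold changes above 0 and 5 below. Their summed level was 536 to 621 CPM in HFpEF and 522 to 595 CPM in Control. Gsn was the most abundant of them, at 422 CPM in HFpEF and 398 CPM in Control. Of 5 myofibroblast markers 4 were tested, with 0 called, 1 (Acta2) at an unadjusted p below 0.05, and 3 log2 fold changes above 0 and 1 below. The 5 markers summed to 88.1 to 123 CPM in HFpEF and 62.1 to 99.5 CPM in Control. Acta2 made up most of that sum, at 73.5 ± 14.5 CPM in HFpEF and 53.1 ± 14.1 CPM in Control (SD, n = 5 each, log2 fold change 0.47 ± 0.20 SE, edgeR adjusted p = 0.232). Pericyte and smooth muscle markers gave 0 calls among 8 and 0 at an unadjusted p below 0.05, with 7 log2 fold changes above 0 and 1 below. They were led by Rgs5 at 598 CPM in HFpEF and 559 CPM in Control. The 7 endothelial markers summed to 969 to 1159 CPM in HFpEF and 1027 to 1201 CPM in Control, with 3 log2 fold changes above 0 and 4 below. Emcn fell, to 40.7 CPM in HFpEF, against 49.3 CPM in Control (log2 fold change -0.27, edgeR adjusted p = 0.0447). Tie1 was not called (-0.21, edgeR adjusted p = 0.0968), though every HFpEF library lay below every Control library, as in 2.93% of all genes tested. Of the 7, 2 had an unadjusted p below 0.05 in edgeR. Of 4 endocardial markers, 1 above 0 and 3 below, Plvap fell, to 3.26 CPM in HFpEF, against 4.83 CPM in Control (-0.57, edgeR adjusted p = 0.0489), with endocardial sums of 57.8 to 84.0 CPM in HFpEF and 69.4 to 95.8 CPM in Control. DESeq2 also called Vwf (edgeR log2 fold change -0.43, edgeR adjusted p = 0.0855). In edgeR 2 of the 4 had an unadjusted p below 0.05. Macrophage markers gave 0 calls among 8, all 8 with log2 fold changes below 0, 4 of them at an unadjusted p below 0.05 and 2 (Cd68 and Csf1r) called by DESeq2, and sums of 98.4 to 124 CPM in HFpEF and 112 to 174 CPM in Control. The 8 cardiomyocyte markers summed to 26034 to 28356 CPM in HFpEF and 26875 to 28587 CPM in Control, with 4 log2 fold changes above 0 and 4 below. Tnnt2 was called lower, at 1407 CPM in HFpEF and 1638 CPM in Control (log2 fold change -0.22, edgeR adjusted p = 0.0185). Ryr2 was at 2786 CPM in HFpEF and 2565 CPM in Control (0.12, edgeR adjusted p = 0.181), and DESeq2 called it. Epicardial or mesothelial markers gave 0 calls among 5 and 0 at an unadjusted p below 0.05, with all 5 log2 fold changes above 0. Adipocyte markers summed to under 1 CPM in every library, and valve or cartilage-like and skeletal muscle markers had 1 tested gene each, neither called. For the fibroblast, myofibroblast, pericyte and smooth muscle, and epicardial or mesothelial lists DESeq2 and limma-voom also called 0. The part of any of these cell types in the collagen results was not tested.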

How the data were processed

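RNA of 10 left ventricle libraries was sequenced after ribosomal RNA depletion. The authors deposited a table of estimated counts per gene, whole numbers that are not normalized; the submitters' processing notes name RSEM 1.2.15, Bowtie2 2.1.0 and mm10. No source used here gives the annotation release, the strand setting or any rounding. The 92 spike-in rows were at 0 and left out.

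Genes were kept by filterByExpr (minimum count 10) and tested with edgeR 4.0.16 (R 4.3.3) by TMM scaling and robust quasi-likelihood fits, with Benjamini-Hochberg adjustment over 18491 genes. CPM use TMM-scaled library sizes; per kb values divide by the principal GENCODE M21 transcript. RSEM divides reads shared between similar genes. On simulated data drawn from these libraries (5 simulations, HFpEF against Control, 18183 to 18224 genes tested), 12.8% of 1.2-fold, 56.4% of 1.5-fold and 83% of 2-fold changes were recovered, and 6.64% of calls were false. Over all 5 simulations 335, 335 and 330 genes were changed by these folds, and 542 calls were made. The fit of the real data alone called 985 genes, so the recovered shares may not carry over to it.

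Members and gene lists were chosen with earlier results of these data known. Values in every library are given for chains with p below 0.05, adjusted or not, and the 2 most abundant per class, with Col1a2 added. Of the pathway lists, called genes, or the gene of smallest p where none was called, are named with library values or means. Of the marker lists, called genes are named, with Myh6, Gsn, Acta2 and Rgs5 as the most abundant of their lists. Serpinh1, Mia3, Ryr2, Tie1, Vwf, Cd68, Csf1r, Lama5, Hspg2, Lum and 7 genes of procollagen processing were added after their values were seen. Library pairs of a group differed beyond sampling noise (chi-square test). DESeq2 1.42.0 and limma 3.58.1 served as alternatives.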

Additional observations from a re-analysis of the deposited data

Results flagged for a closer look

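In each set of 5 libraries of a group, the gap between the most distant library and its neighbour was set against the range of the group. Of 104 sets, 6 held a library beyond the critical value of 0.71 (Dixon), where chance alone flags about 1 in 20. Col4a5 was at 26.9 CPM in HFpEF library 4, with the other HFpEF libraries at 23.9 to 24.6 CPM. Col23a1 was at 2.02 CPM in Control library 1, with the other Control libraries at 1.74 to 1.78 CPM. The share of the other collagen types in all collagen CPM per kb was 27.2% in Control library 3 and 32.5% to 33.1% in the other Control libraries. The ratio of Col6a1 to Col6a2 per kb was 0.952 in HFpEF library 2 and 0.981 to 0.991 in the other HFpEF libraries. The ratio of Col6a3 to Col6a1 per kb was 0.269 in HFpEF library 4, the HFpEF library nearest to Control, and 0.308 to 0.320 in the others. The ratio of Col4a3 to Col4a4 per kb was 0.867 in Control library 5 and 0.668 to 0.714 in the other Control libraries.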

How the results depend on the processing

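Of the 2 collagen chains called higher, 1 remained called under upper quartile scaling, limma-voom, a non-robust fit and the stricter filter (minimum count 50, which left Col28a1 untested), and DESeq2 called 4; leaving out 1 library gave 1 to 3. The 1 chain called lower became 0 to 1 when 1 library was left out and 0 without Control libraries 4 and 5 together, an alternative chosen after seeing the data because they were the deepest, as was the use of merged exon lengths. Over all genes 599 were higher and 386 lower; DESeq2 gave 926 higher, upper quartile scaling 526 higher and 450 lower, and leaving out 1 library 352 to 684 higher and 202 to 417 lower. Of the pathway genes 5 were higher and 1 lower; DESeq2 gave 9 and 3, upper quartile scaling 3 lower, no filter and the stricter filter 2 lower each, Control libraries 4 and 5 left out 0 lower, and leaving out 1 library 3 to 7 higher and 0 to 2 lower. Replicate numbers did not pair the libraries (correlation of same-numbered libraries -0.11 to 0.0638); with the number as a replicate block 2 chains were higher (Col27a1 and Col6a3, adjusted p = 0.0351) and 1 lower, and pathway genes gave 3 higher and 0 lower.

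Chains with differences near 0 changed sign. Log2 fold changes became 0.0024 (Col5a2) and 0.0040 (Col1a2) with RLE size factors, 0.0025 and 0.0043 with DESeq2, 0.025 and 0.047 without Control libraries 4 and 5, and 0.00031 and 0.0062 with the replicate block, which put Col4a2 at -0.0012. Col4a2 and Col12a1 became -0.0099 and -0.011 under upper quartile scaling, -0.0014 and -0.011 with limma-voom, which put Col1a2 at 0.0060, and -0.0021 and -0.0041 under the stricter filter. Leaving out 1 library gave -0.118 to 0.036 for Col1a1, -0.054 to 0.064 for Col1a2, -0.137 to 0.074 for Col3a1, -0.098 to 0.014 for Col4a1, -0.035 to 0.060 for Col4a2, -0.051 to 0.064 for Col5a2, -0.090 to 0.054 for Col5a3, -0.036 to 0.129 for Col8a1 and -0.056 to 0.060 for Col12a1. The cause of these moves was not tested. Depth limits the low chains: at 8 to 60 counts per library (Col6a5, Col22a1, Col28a1, Col25a1, Col13a1), moderate differences may not be detectable. Collagen sums, shares and ratios moved by less than 1 SD between libraries under each alternative run on them.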
